A study of Mus musculus with 2 samples.

Results

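Mir221 and Mir222 are neighbouring microRNA (miRNA) genes on the mouse X chromosome. They were taken from the deposited tables by their gene names in the GENCODE M21 annotation, which gave 2 of 2202 miRNA genes. The tables hold miRNA sequencing of adrenal tissue from female mice aged 4 days of the hybrid strain B6CASTF1/J, a cross of C57BL/6J with CAST/EiJ. The series has 1 group of 2 libraries, numbered as biological replicates 1 and 2. The labels number the replicates and not the mice, and 1 donor identifier stands on both. It was taken on that numbering alone that the libraries come from separate mice. No mouse carried a labelled treatment or engineered allele. The data can therefore answer how abundant the pair was and how steadily its members were held from library to library.

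A miRNA is cut from a hairpin in a longer transcript and guides silencing proteins to messenger RNAs that pair with its seed, the bases 2 to 8. In human cells miR-221 and miR-222 are known to repress the cell cycle inhibitors CDKN1B and CDKN1C and the stem cell factor receptor KIT. They are well studied in endothelial cells and in vascular smooth muscle. The adrenal gland is a densely vascular tissue, with a steroid-producing cortex around a catecholamine-producing medulla.

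The mature 3p arms are shown because their shared start is what makes the genes a family. Capitals mark the seed, and the sequences are those of RefSeq (build GRCm38.p6), where both genes were found.
mmu-miR-221-3p: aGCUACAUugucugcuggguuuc
mmu-miR-222-3p: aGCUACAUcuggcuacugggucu
The arms were each 23 bases long and shared their first 8 bases. Aligned without gaps, they were identical at 11 of 23 positions. The table of mature mouse miRNAs held 1 other entry with that seed, mmu-miR-1928 (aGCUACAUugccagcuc, chromosome 1), whose gene Mir1928 had 0 reads in both libraries. A count of 0 (a floor of 3 counts) allows Mir1928 up to 6.05e-05% of the miRNA reads in replicate 1 and 6.66e-05% in replicate 2, and reads that map to several places are not in the counts.

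The hairpins carry these arms as follows, with the annotated mature arms in capitals.
Mir221: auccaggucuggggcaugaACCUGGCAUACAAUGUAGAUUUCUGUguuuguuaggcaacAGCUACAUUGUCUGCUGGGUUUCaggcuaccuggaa
Mir222: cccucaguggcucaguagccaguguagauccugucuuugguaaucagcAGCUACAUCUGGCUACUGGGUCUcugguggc
RefSeq lists a 5p and a 3p arm for Mir221 and a 3p arm for Mir222. The counts are per hairpin, so the reads of a 5p and a 3p arm are not told apart. The longest run of bases common to both hairpins was 9. With any other annotated mouse hairpin on either strand, the longest common run was 13 for Mir221 and 12 for Mir222. A shared run of 18 bases was used to mark genes whose reads may map to several places, and neither member had one. The rest of the genome was not searched.

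Mir221 (ENSMUSG00000065422.1) lies on the minus strand of chromosome X from 19146294 to 19146388 (mm10, the same assembly as GRCm38), a hairpin of 95 bases. Mir222 (ENSMUSG00000065471.1) lies on the same strand from 19146893 to 19146971, a hairpin of 79 bases. On the minus strand Mir222 comes first, and 504 bases separate the hairpins. No other GENCODE gene overlaps the pair, so both hairpins are annotated as intergenic. The next annotated gene upstream on that strand, the non-coding Gm14636, ends 10009 bases from Mir222.

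Mir221 was the more abundant member in both libraries. It had 1235 reads in replicate 1 and 1404 reads in replicate 2, out of 4960537 and 4506482 reads assigned to miRNA genes. As CPM, reads scaled to a common total, this was 249 CPM in replicate 1 (95% Wilson interval 235 to 263) and 312 CPM in replicate 2 (296 to 328). Its mean was 280.3 CPM ± 44.3 (SD, n = 2), above the median of 149.9 CPM over the 377 genes with at least 10 reads in both libraries. Those 377 genes are called detected here. By reads, Mir221 stood 162nd of 377 in replicate 1 and 137th in replicate 2.

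Mir222 was a lower member of the miRNA pool. It had 401 reads in replicate 1 and 274 reads in replicate 2. These equal 80.8 CPM in replicate 1 (95% Wilson interval 73.3 to 89.1) and 60.8 CPM in replicate 2 (54.0 to 68.4). The mean was 70.8 CPM ± 14.2 (SD, n = 2), below the median of the detected genes. It stood 225th of 377 in replicate 1 and 222nd in replicate 2. The intervals and floors cover counting error only, as reads amplified by PCR with no molecular identifiers may be copies of the same molecule. The spread over the libraries was 15.8% of the mean for Mir221 and 20.0% for Mir222.

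Every counted read of the pair came from the annotated strand. The reads on the opposite strand were 0 for both members in both libraries, and the counts made without regard to strand equal those on the annotated strand. A count of 0 allows an opposite-strand share of up to 0.243% and 0.214% for Mir221 in replicates 1 and 2, and of up to 0.748% and 1.09% for Mir222. Of the detected genes, 43 of 377 had at least 1 read on the opposite strand.

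**Figure D1:**
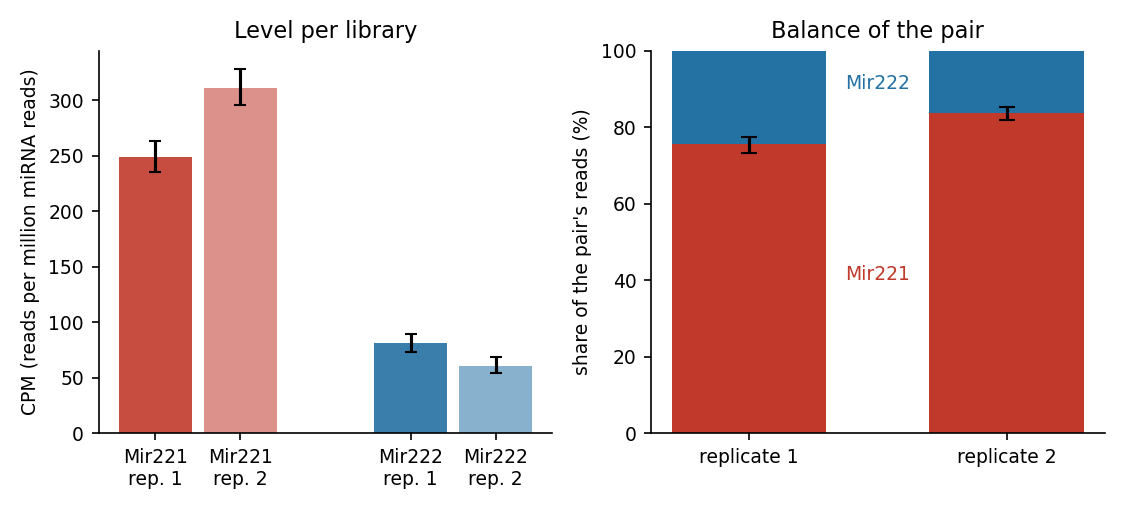
The left panel plots the CPM of Mir221 and Mir222 in each library, and the right panel the share (%) of the pair's reads held by each gene, with bars starting at 0 and 95% Wilson intervals. Mir221 was the taller bar in both libraries, and its share was 75.5% in replicate 1 and 83.7% in replicate 2.

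Within each library the pair was held at an unequal balance. Mir221 took 75.5% of the pair's 1636 reads in replicate 1 (95% Wilson interval 73.3 to 77.5). In replicate 2 it took 83.7% of 1678 reads (81.8 to 85.4). The intervals do not overlap. There were 3.08 reads of Mir221 for each read of Mir222 in replicate 1 and 5.12 in replicate 2. The mean of this ratio was 4.10 ± 1.45 (SD, n = 2). Per base of hairpin the ratios were 2.56 and 4.26, with a mean of 3.41 ± 1.20 (SD, n = 2). The hairpins differ in length but the 3p arms do not, so the ratios per base of hairpin are a description only. The efficiency of ligation and amplification for each sequence is not known, so all these ratios are of reads and not of molecules.

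The members differed between the libraries in opposite directions. Ratios of replicate 1 over replicate 2 were scaled by TMM, which sets library sizes by the bulk of genes and not by the total. They were tested with an exact two-sided binomial test, with Benjamini-Hochberg adjustment over the 377 detected genes. Mir221 was 1.37-fold lower in replicate 1 than in replicate 2 (log2 ratio -0.45, 95% exact interval -0.57 to -0.34, adjusted p = 1.77e-15 by the binomial test). Mir222 was 1.21-fold higher in replicate 1 (log2 ratio 0.28, 0.05 to 0.51, adjusted p = 0.0204 by the binomial test). This test takes counting error as the only error and compares these 2 libraries. With 1 library per animal, as taken from the numbering alone, there is no test against the spread between animals.

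Such differences were common among miRNA genes in these libraries. By the same test 257 of 377 genes (68.2%) differed, 123 (32.6%) higher in replicate 1 and 134 (35.5%) higher in replicate 2. A larger absolute log2 ratio was seen at 186 genes than at Mir221, and at 246 genes than at Mir222. The median absolute log2 ratio was 0.45, almost that of Mir221, and the SD of log2 ratios over genes was 0.97. The common biological coefficient of variation from edgeR, a summary of the spread between libraries beyond counting error, was 0.433. Both members therefore lay within the general spread of this pair of libraries.

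The reads of both genes were also summed, since they share a seed. Mir221 and Mir222 together reached 330 CPM in replicate 1 and 372 CPM in replicate 2, a mean of 351 CPM ± 30.1 (SD, n = 2). The TMM-scaled log2 ratio of the sum was -0.31 (95% exact interval -0.41 to -0.21), and it was -0.01 with library sizes taken without Mir126a, the gene with the highest mean CPM. Most of this sum is Mir221, whose direction it took by TMM.

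**Figure D2:**
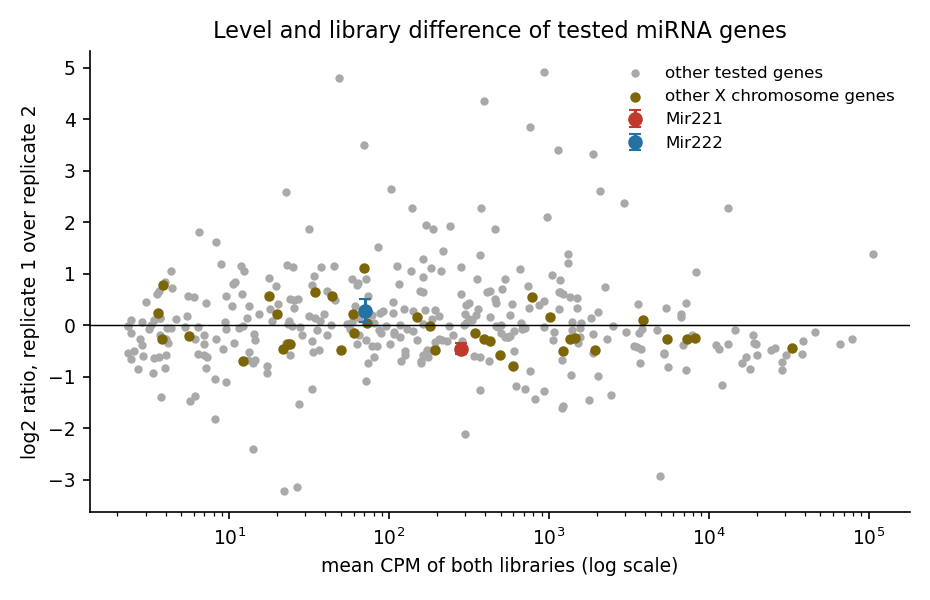
Each point is a detected miRNA gene, with its mean CPM on a log axis and its TMM-scaled log2 ratio of replicate 1 over replicate 2 on the vertical axis, and 95% exact intervals for Mir221 and Mir222. Mir221 (log2 ratio -0.45) and Mir222 (0.28) lie on opposite sides of 0 and inside the cloud of other genes.

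The balance of the pair was then set beside that of other neighbouring genes. Adjacent detected genes on the same strand with starts at most 10 kb apart gave 124 such pairs. The odds ratio of a pair needs no scaling of libraries, since both genes are counted in the same reads. For Mir221 over Mir222 in replicate 1 over replicate 2, the log2 odds ratio was -0.73 (95% exact interval -0.99 to -0.48). By a two-sided Fisher's exact test over counts, adjusted over the 124 pairs, p was 1.17e-08. The test covers counting error only, as above.

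A change of balance of that size was ordinary for neighbours. The test called 90 of 124 pairs (72.6%). The absolute log2 odds ratio was larger than that of Mir221 and Mir222 at 53 pairs and smaller at 70, and its median was 0.64. With pairs of at least 1 read in either library, chosen after seeing the data, 89 of 167 were larger and the median was 0.75. In 33 of the 124 pairs (26.6%), Mir221 and Mir222 among them, the genes were called towards different libraries. These are the TMM-scaled calls of single genes, which unlike the odds ratio depend on the scaling. The 33 were not recounted under other scalings. Many genes are in 2 pairs, so the pairs are not independent of each other.

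Single pairs show the range. The difference was largest for Mir93 and Mir106b, which lie in an intron of the replication gene Mcm7 (log2 odds ratio -2.37). Mir93 had 10831 reads in replicate 1 and 10841 in replicate 2, whereas Mir106b had 7968 and 1546. It was smallest for Mir144 and Mir451a, erythroid miRNAs, whose log2 odds ratio was 0.0015. Mir144 had 1492 reads in replicate 1 and 338 in replicate 2, and Mir451a had 3660 and 830. Next to Mir221 and Mir222 in the order were Mir337 with Mir540 of the Dlk1-Dio3 cluster (0.74) and Mir290a with Mir291a (0.72). The last pair had only 12 and 10 reads of Mir290a and did not pass the test (adjusted p = 0.400 by Fisher's exact test).

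**Figure D3:**
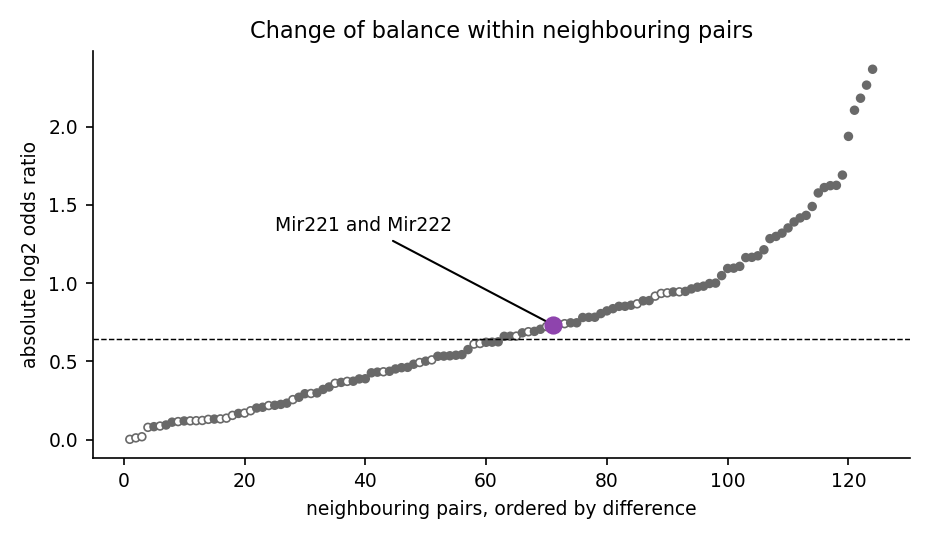
The 124 neighbouring pairs are ordered by absolute log2 odds ratio, with filled points for pairs past the adjusted Fisher's exact test, open points for the others and a dashed line at the median of 0.64. Mir221 and Mir222, the purple point at 0.73, lie slightly above that line.

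On the X chromosome, 38 of 142 miRNA genes were detected. The X-linked genes together took 6.50% of the miRNA reads in replicate 1 and 7.43% in replicate 2. By mean CPM Mir221 was 17th and Mir222 22nd of the 38, far below Mir322 with 147484 and 166447 reads. Of the other 36 detected X-linked genes, 7 were higher in replicate 1, 17 were higher in replicate 2 and 12 had no call. Their median log2 ratio was -0.24, against -0.04 over all 377 genes. The counts changed with library sizes taken without Mir126a, which held far more reads in replicate 1. Of all 38 X-linked genes, 19 were then called towards replicate 1 and 7 towards replicate 2, against 8 and 18 by TMM. Over all 377 genes the calls under that scaling were 189 and 77, with a median log2 ratio of 0.25. The median of the 38 was 0.05, below that of all genes, as it was by TMM. Among the X-linked genes Mir222 belonged to the smaller set by TMM and Mir221 to the larger one.

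The pair stands alone on its stretch of the chromosome. The 3 detected X-linked genes nearest to it were at least 11339073 bases away, on the side of lower coordinates. Mir1198 had 217 reads in replicate 1 and 253 in replicate 2 and was 1.41-fold lower in replicate 1 (adjusted p = 0.000435 by the binomial test). Mir532 (log2 ratio -0.50) and Mir188 (-0.28) had the same direction as Mir221 by TMM. With library sizes taken without Mir126a, the log2 ratio was -0.195 for Mir1198 (-0.49 by TMM), -0.200 for Mir532 and 0.02 for Mir188.

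**Figure D4:**
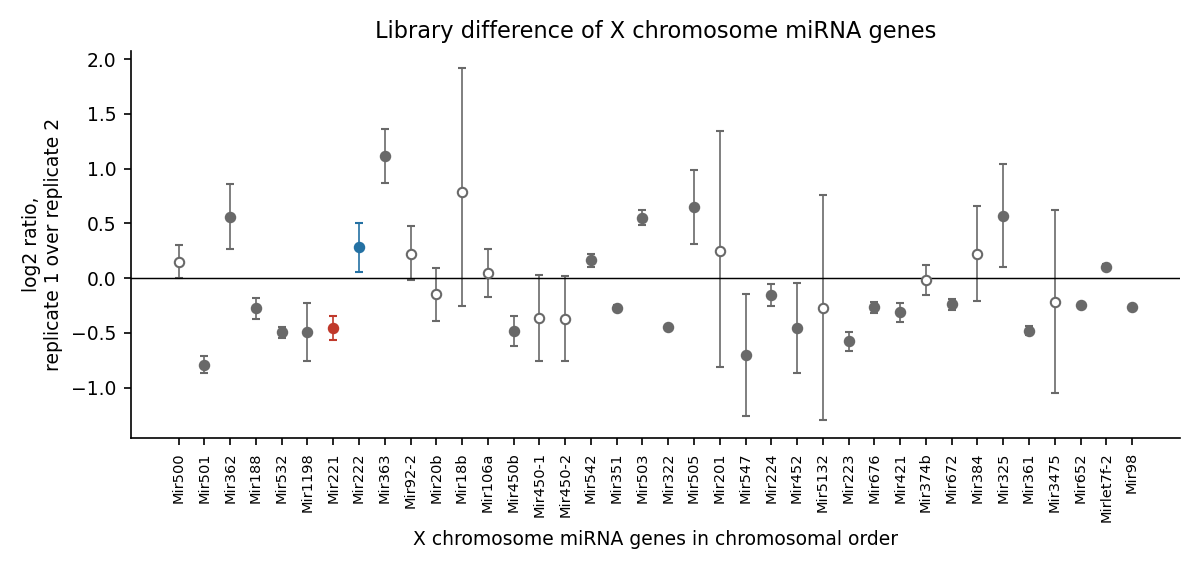
Each point is a detected X-linked miRNA gene in chromosomal order, with its TMM-scaled log2 ratio of replicate 1 over replicate 2 and its 95% exact interval, filled where the adjusted binomial test called it. Mir221 (red, -0.45) and its neighbour Mir222 (blue, 0.28) lie on opposite sides of 0.

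Genes of like level were found by the distance between log2 CPM values over both libraries. This is a description over 2 libraries and says nothing of function. Nearest to Mir221 were Mir31 (267 CPM in replicate 1 and 302 CPM in replicate 2, distance 0.11), Mirlet7a-1 (247 and 259 CPM, 0.27) and Mir665 (311 and 282 CPM, 0.35). The hairpin of Mirlet7a-1 shares runs with other genes, so its count holds uniquely mapped reads alone. Nearest to Mir222 were Mir106a, also X-linked (77.4 CPM in replicate 1 and 68.3 CPM in replicate 2, distance 0.18), Mir92b (70.8 and 58.6 CPM, 0.20) and Mir1249 (91.5 and 56.4 CPM, 0.21). By the same measure Mir222 was 132nd in closeness to Mir221, at a distance of 2.86. The neighbours on the chromosome were thus not neighbours in level.

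In bulk tissue, fewer cells of a type and less RNA per cell cannot be told apart. Markers of cell types that may carry the pair were read for that reason. Their counts of calls stand against the 32.6% and 35.5% of all 377 genes called higher in replicates 1 and 2 by TMM. Where library sizes were taken without Mir126a, the counts of all 377 genes to set beside them were 189 and 77. Of the 3 endothelial markers, Mir126a stood at 156832 CPM in replicate 1 against 54709 CPM in replicate 2, a TMM-scaled difference of 2.62-fold. Mir139, the other detected one, had 14194 and 19981 CPM and was 1.54-fold higher in replicate 2. Mir126b, antisense to Mir126a, had 20 and 6 reads and was not tested. The detected endothelial markers were thus called in different directions, as Mir221 and Mir222 were.

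Mesenchymal and smooth muscle markers were split too. Of 5 detected among 7, 3 were higher in replicate 1, with Mir214 at 6.13-fold, and 2 in replicate 2, Mir143 at 1.49-fold and Mir145a at 2.98-fold. The median log2 ratio was 0.51, against -0.04 over all genes. With hairpins that share runs left out, Mir199a-2 and Mir199b drop from the list, the counts were 1 and 2, and the median was -0.53. Over all genes the counts were then 97 and 98 of 281, and the median was 0.03. Of the 5 neuroendocrine markers, 1 was higher in replicate 1, 2 were higher in replicate 2 and 2 had no call, or 3 and 1 with library sizes without Mir126a. Mir375, a miRNA of neuroendocrine cells, stood at 36380 CPM in replicate 1 and 41025 CPM in replicate 2. Among the leukocyte markers, 1 of 5 was higher in replicate 1 and 3 in replicate 2. Without Mir126a in the library sizes, 2 were called each way. Mir223, a miRNA of myeloid cells, stood at 418 and 569 CPM.

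Some markers of other tissues differed far more than the pair. Of 7 epithelial markers, 6 were higher in replicate 1 and Mir203, a miRNA of keratinocytes, was 2.38-fold higher in replicate 2. The median log2 ratio was 3.85, and their summed level was 4709 CPM in replicate 1 and 1165 CPM in replicate 2. All 3 detected striated muscle markers of 9 were higher in replicate 2 (median log2 ratio -2.93, sums of 1250 and 8687 CPM). Those sums were almost all Mir206, with 1239 CPM in replicate 1 and 8627 CPM in replicate 2. Mir208b had 19 and 56 reads, and Mir499 had 23 and 179. The Mir1a and Mir133 genes, 5 of the 9, were not detected, but their hairpins share runs with other genes. Reads with several mapping places were left uncounted, so the low counts of these 5 need not mean absence. Of the 3 erythroid markers, Mir144 and Mir451a were higher in replicate 1 and Mir486 was 1.49-fold higher in replicate 2. Without Mir126a in the library sizes these counts were 2 and 0, so Mir486 had no call. The summed level of the erythroid markers was 1059 and 287 CPM. The part of these cell types in the levels of Mir221 and Mir222 was not tested.

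Other miRNAs known to act on the Cip/Kip inhibitors, the family of CDKN1B and CDKN1C, or on Kit were read last. The Cip/Kip list is by family, so its genes need not share CDKN1B or CDKN1C as a target with the pair. Of 11 further genes known to act on the Cip/Kip inhibitors of the cell cycle, all were detected, 5 were higher in replicate 1 and 2 in replicate 2, beside 123 and 134 of all 377 genes. Without Mir126a in the library sizes these counts were 9 and 0, beside 189 and 77 of all genes. With hairpins that share runs left out they were 3 and 1 of 7, beside 97 and 98 of 281 genes. The median log2 ratio of the 11 genes was 0.05 by TMM, against -0.04 over all genes. Mir106b (1606 CPM in replicate 1, 343 CPM in replicate 2) and Mir25 (549 and 196 CPM) were the furthest apart. Mir17, the most abundant of them, had 3897 and 3726 CPM. The summed level of these 11 genes was 11780 CPM in replicate 1 and 9235 CPM in replicate 2, well above that of the pair.

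Of 6 further miRNAs known to act on Kit, 2 were higher in replicate 1, 3 were higher in replicate 2 and Mir34b had no call, beside the same 123 and 134 of all genes. The median log2 ratio was -0.22, against -0.04 over all genes. Without Mir126a in the library sizes it was 0.08, against 0.25 over all genes. Mir34c, a target of p53, stood at 1021 CPM in replicate 1 and 2556 CPM in replicate 2. Mir193a, with 165 and 209 CPM, was 1.39-fold higher in replicate 2, close to the ratio of Mir221. Mir494 stood at 287 CPM in replicate 1 and 397 CPM in replicate 2, a level like that of Mir221. Together the 6 genes summed to 1882 CPM in replicate 1 and 3481 CPM in replicate 2, against 330 and 372 CPM for Mir221 and Mir222.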

How the data were processed

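The authors deposited raw read counts per miRNA gene for each library, without normalization. Per the file headers and descriptions, the assembly was mm10 and the annotation GENCODE M21. For the aligner and counter, the sources used here give no name. The tables have 3 count columns with no header. The values show them to hold reads counted without regard to strand, reads of the annotated strand (used here) and reads of the opposite strand. In the first of these columns 29 of the 377 detected genes lost most of their reads, and reads called ambiguous stand in a row of their own. The 4 leading rows name no gene and stayed out of totals. Reads assigned to miRNA genes were 42.4% of 11704395 reads in replicate 1 and 39.9% of 11288855 in replicate 2.

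CPM values use the total of miRNA reads. TMM factors (1.05 and 0.956) came from edgeR 4.0.16 over the whole table, and DESeq2 1.42.0 size factors were an alternative. Binomial and Fisher tests used scipy 1.17.1, with calls at an adjusted p under 0.05. Both tests were tested on simulated counts that vary by counting error only, which does not cover the spread between libraries. The named genes were the members, the 3 genes nearest in level and in position, extreme and adjacent pairs, and list members. Mir146a is named Mir146 in GENCODE. The members and the 9 lists were chosen with earlier results of these data known.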

Additional observations from a re-analysis of the deposited data

How the results depend on the processing

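Mir221 stayed higher in replicate 2 and Mir222 higher in replicate 1, both past the threshold, under all 8 alternatives of scaling, read minimum, strand column and shared hairpins. The log2 ratio of replicate 1 over replicate 2 ranged from -0.45 to -0.16 for Mir221 (adjusted p from 1.33e-15 to 0.00812, binomial test) and from 0.28 to 0.58 for Mir222 (5.53e-07 to 0.0426). The log2 odds ratio of the pair was -0.73 under all 6 alternatives (adjusted p from 9.28e-09 to 1.61e-08, Fisher's exact test), since none of them alters these reads. Scaled to all reads in place of miRNA reads, the mean level was 115 CPM for Mir221 and 29.3 CPM for Mir222, and in the column counted without regard to strand it was 332 and 85.0 CPM, since the totals differ. Leaving out a replicate gave 249 to 312 CPM for Mir221 and 60.8 to 80.8 CPM for Mir222. Library sizes without Mir126a shifted every log2 ratio by 0.30, and gave 19 X-linked genes higher in replicate 1 and 7 in replicate 2. Over all genes that scaling gave 189 and 77, total miRNA reads (a shift of 0.13) 144 and 112, and TMM 123 and 134. In the column counted without regard to strand Mir126a had 11 and 5 reads and was not tested. The test of balance called 58 of 82 pairs within 1 kb, 91 of 105 with a mean of 100 reads and 88 of 167 with at least 1 read in either library. In the last of these 89 pairs exceeded Mir221 and Mir222, which then lay below the median of 0.75. With at least 1 read in either library, 80 genes had reads on the opposite strand. The alternatives of TMM over detected genes, and of pairs with at least 1 read, were chosen after seeing the data. No paired analysis was possible because the series has 1 group. At 274 to 401 reads, the depth of Mir222 limits its ratio to an interval of 0.05 to 0.51.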

Other observations

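Neighbours that share a seed, as Mir221 and Mir222 do, were picked out after the values of all pairs had been seen, so the following is a description without a test. Mature sequences for both genes were found for 116 of the 124 neighbouring pairs, and in 27 of these the genes had a seed in common. The median absolute log2 odds ratio of those 27 pairs was 0.78, against 0.64 over all pairs. It exceeded that of Mir221 and Mir222 at 15 of the 27, against 53 of all 124. The test of balance above had called 20 of the 27, against 90 of all 124. The pair with the largest difference of all, Mir93 and Mir106b, was among the 27.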
